A study of Mus musculus with 6 samples.

Results

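The regions described here are the widest stretches of m6A enrichment outside the mitochondrial sequence in mouse midbrain and striatum RNA. Each is an unbroken stretch of more than 1000 bases in the authors' peak list, made by joining peaks that touch end to end, on chromosomes 1 to 19 or X. There were 339 of them among 23402 regions on these 20 chromosomes (1.45%), and among 23446 regions on all sequences. They are called wide regions below, and the 23063 regions of 1000 bases or less on the same chromosomes are called the rest. A further region over this width lay on the mitochondrial sequence and was left out by the rule. The members were chosen by their width in this list, so every statement on width is a description and carries no test.

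The tissue came from adult wild-type littermates on a C57BL/6 background, and the labels name midbrain and striatum together for every library. There were 3 MeRIP libraries, made from RNA pulled down with an antibody against m6A, and 3 input libraries of the same kind of rRNA-depleted RNA without pull-down. Both brain areas are thus 1 tissue here, and the list has no expression values with which the tissue label could be checked. The list gives 1 set of positions for all 6 libraries, with no height, strand, gene or value per library, so the depth and the spread between libraries are unknown. Shares below carry 95% exact binomial (Clopper-Pearson) intervals. These cover counting error only and treat regions as independent, which neighbouring regions are not.

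N6-methyladenosine is a methyl mark set on adenosines inside RNA by a writer complex that holds METTL3 and METTL14, read by proteins of the YTH family and removed by demethylases, among them FTO. In messenger RNA it is known to gather near stop codons, in 3′ untranslated regions and in long internal exons. MeRIP pulls down fragments rather than single bases, so an enriched stretch is wider than the mark within it, and a stretch of several fragment lengths can hold more than 1 mark. The genome and annotation of build mm9, in which the positions are given, were not used here. The genes, transcript parts and sequences under the wide regions were therefore not determined, and each region is identified by its position, counted from 1.

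Wide regions formed the upper tail of the width range and had no upper class of their own. Their widths ran from 1025 to 2525 bases, with a median of 1225 bases and an interquartile range of 1100 to 1425 bases, against a median of 200 bases in the rest. Of the 339, 192 (56.6%) were at most 1250 bases wide, 78 (23.0%) were 1251 to 1500 bases and 69 (20.4%) were over 1500 bases, 15 of these over 2000 bases. All edges lay on a grid of 25 bases, so the limit of 1000 bases falls between neighbouring steps. Just outside the limit there were 33 regions of 975 bases and 50 of 1000 bases. Just inside it there were 30 regions of 1025 bases and 30 of 1050 bases. The list held the wide regions as 6 to 13 peaks each, 2402 peaks in all, or 5.60% of its 42886 peaks. In every wide region the number of peaks was the width divided by 200 bases, rounded up. Peak numbers thus restate width and do not count separate sites. They covered 445275 bases, which is 6.68% of the bases covered by regions on the 20 chromosomes.

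**Figure D1:**
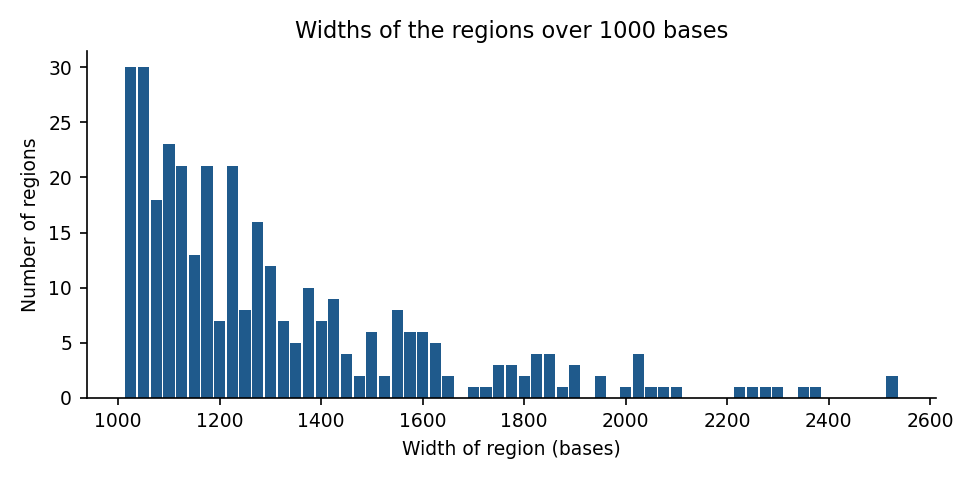
Number of wide regions (vertical axis) at each width in bases (horizontal axis), 1 bar for each step of 25 bases. Counts fall from 30 regions at 1025 bases to single regions above 2050 bases, with a pair at 2525 bases.

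The 10 widest regions lay on 9 chromosomes. In 7 of the 10, another region lay within 10 kb on 1 side and none did on the other, an arrangement also found in 52.5% of all wide regions, 60.9% of those over 1500 bases and 47.1% of the rest. In 8 of the 10 the nearest other region was within 1 kb. The region at chr1:33857801-33860325 (2525 bases, 13 peaks) was separated by 25 bases from a region of 150 bases on its low-coordinate side. On its high-coordinate side the next region was 48900 bases away, and the wide region made up 94.4% of the covered bases of this pair. At the same width, chr11:117582301-117584825 was the only one of the 10 with no other region within 10 kb, with gaps of 358850 and 37125 bases to its neighbours. These regions of equal width therefore sat in unlike surroundings, 1 a step of the grid away from a neighbour and the other far from any.

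The region at chr11:49028551-49030925 (2375 bases) was the first of a group of 4, with a gap of 118850 bases below it and 200 bases above it. At chr15:72636976-72639250 (2275 bases) the wide region was likewise first, in a group of 3. It had 295925 bases without a region below it and a neighbour of 875 bases only 25 bases above it. The opposite order was found more often among the 10. The regions chr19:59373851-59376200 (2350 bases), chr13:54839651-54841950 (2300 bases) and chr3:107133101-107135200 (2100 bases) were each the last of 3, with 43175, 25800 and 106850 bases to the next region above. The region chr12:42178926-42181150 (2225 bases) was the last of 2, at 50 bases from a region of 575 bases. Because the list has no strand, first and last refer to genome coordinates and not to the 5′ or 3′ end of a transcript.

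Both remaining regions of the 10 were flanked on either side. The region chr5:107935901-107938150 (2250 bases) was the third of 5, with gaps of 1750 and 200 bases, and held 63.4% of the covered bases of its group. The region chr9:111174626-111176700 (2075 bases) was the middle one of 3, with gaps of 50 and 525 bases, and held 69.7%.

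Wide regions were found on each of the 20 chromosomes, from 7 on chromosomes 16 and X to 36 on chromosome 2. Chromosomes 2, 11, 9, 1 and 7 held the most and together had 137 of them (40.4%), against 34.0% of the rest. These chromosomes were picked by this count, so a share above that of the rest is favoured by the choice. Per Mb between the first and last peak, wide regions ranged from 0.0435 on chromosome X to 0.261 on chromosome 11, a 6.01-fold range, while the rest varied 3.15-fold.

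Much of this spread follows the number of regions of any width. The share of a chromosome's regions that were wide was highest on chromosome 15 (19 of 883, 2.15%, interval 1.30 to 3.34), chromosome 2 (36 of 1841, 1.96%, 1.37 to 2.70) and chromosome 9 (24 of 1304, 1.84%, 1.18 to 2.73). It was lowest on chromosome 13 (8 of 928, 0.862%, 0.373 to 1.69), chromosome 16 (7 of 794, 0.882%, 0.355 to 1.81) and chromosome X (7 of 733, 0.955%, 0.385 to 1.96). The intervals of the highest and lowest chromosome overlap, and the interval of each of the 20 chromosomes holds the overall share of 1.45%. On chromosome 11, which had the most wide regions per Mb, 31 of 1717 regions were wide (1.81%, 1.23 to 2.55). No chromosome thus stood apart in its share of wide regions beyond counting error, although shares that differ by less than these intervals could not be seen.

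**Figure D2:**
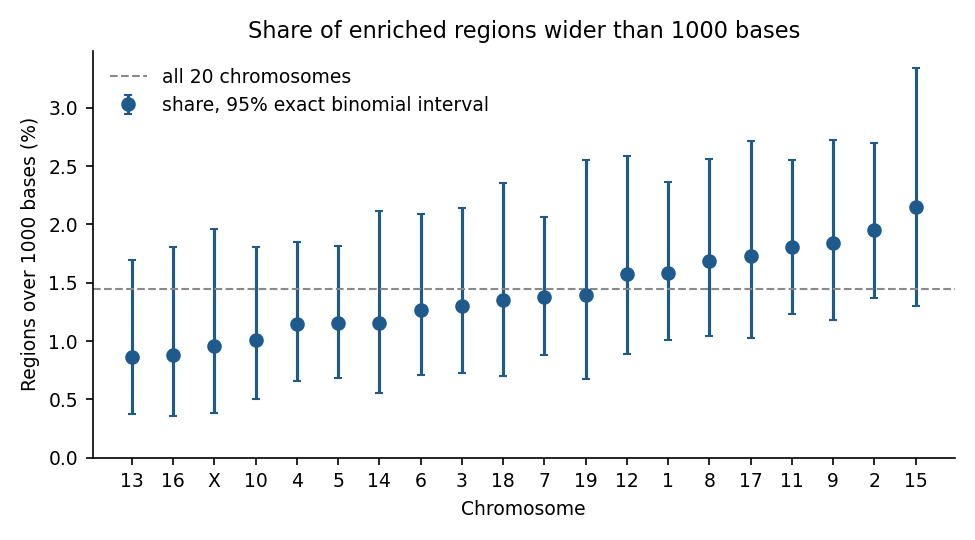
Share of enriched regions wider than 1000 bases, in percent, on each of 20 chromosomes, ordered from lowest to highest. Points are shares, bars 95% exact binomial intervals, and the dashed line the share of 1.45% over all 20; each bar crosses the line.

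Wide regions had another region close by more often than the rest. The median gap to the nearest other region, from edge to edge, was 450 bases (interquartile range 100 to 6112 bases), against 900 bases (150 to 11650 bases) in the rest. Of 339 wide regions, 195 had another region within 1 kb (57.5%, interval 52.1 to 62.9), against 51.2% (50.6 to 51.9) of the rest. By chromosome, this share was higher in wide regions than in the rest on 12 of 20 and lower on the others. Each chromosome held only 7 to 36 wide regions. Within 100 bases there was another region for 86 (25.4%, 20.8 to 30.4), against 19.4% (18.9 to 19.9) of the rest and 24.9% (23.2 to 26.7) of regions of over 500 to 1000 bases. At the smallest gap the grid allows, 25 bases, the shares were 7.08% and 7.10%. No chance test over regions was run, so these differences are stated beside their counting intervals only.

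The contrast was larger with the narrowest regions than with those just under the limit. Regions of over 500 to 1000 bases had a median gap of 550 bases and another region within 1 kb in 55.0% of cases (53.0 to 57.1), which overlaps the interval of the wide regions. In regions of 200 bases or less the median gap was 1250 bases and the share 47.4% (46.5 to 48.3). At over 200 to 500 bases they were 625 bases and 55.0% (54.0 to 56.0), so the share did not rise from there to 1000 bases. Among wide regions the median gap was 500 bases at 1001 to 1250 bases of width, 475 bases at 1251 to 1500 bases and 325 bases above 1500 bases. In the same order, the shares within 1 kb were 56.8% (49.4 to 63.9), 55.1% (43.4 to 66.4) and 62.3% (49.8 to 73.7), with overlapping intervals. With the rest weighted to the chromosome mix of the wide regions, its share within 1 kb was 51.4% and thus almost unchanged.

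**Figure D3:**
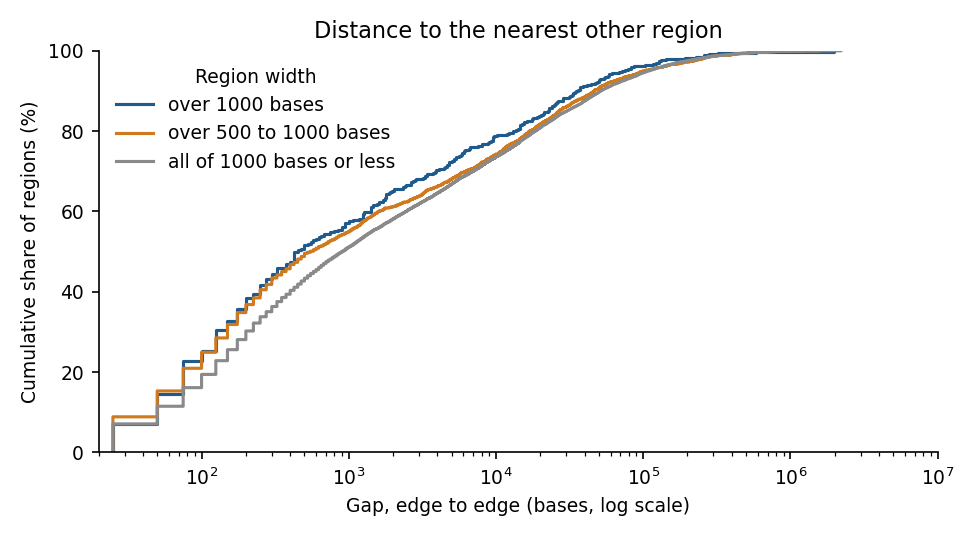
Cumulative share of regions in percent (vertical axis) by the gap to the nearest other region in bases (horizontal axis, log scale), for wide regions, regions of over 500 to 1000 bases and all regions of 1000 bases or less. Half-way up, the wide regions reach 450 bases, the regions of over 500 to 1000 bases 550 bases and the whole rest 900 bases; the first pair of curves runs close together up to about 1 kb.

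Isolated wide regions, with no other region within 10 kb, numbered 72 of 339 (21.2%, interval 17.0 to 26.0), against 6094 of 23063 (26.4%, 25.9 to 27.0) in the rest. Regions of over 500 to 1000 bases were isolated in 25.7% of cases (24.0 to 27.6), which overlaps the interval of the wide regions. Isolation did not fall steadily with width among the wide regions, with 20.3% at 1001 to 1250 bases, 24.4% at 1251 to 1500 bases and 20.3% above. With no other region within 100 kb there were 13 wide regions (3.83%, 2.06 to 6.47), against 5.49% (5.20 to 5.80) of the rest, so that intervals overlap at this distance. Isolated wide regions were found on each of the 20 chromosomes. Their median width of 1225 bases equalled that of the wide regions with neighbours.

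Chromosome 11 held the largest number and share of isolated wide regions. There 14 of 31 were isolated (45.2%, interval 27.3 to 64.0), against 25.4% (23.4 to 27.6) of the rest on the same chromosome. On the other chromosomes together 58 of 308 wide regions were isolated (18.8%, 14.6 to 23.7), against 26.5% (25.9 to 27.1) of the rest. No other chromosome had more than 6 isolated wide regions, and the next highest share was 6 of 16 (37.5%) on chromosome 4. The 14 on chromosome 11 were spread from 20.6 to 118.9 Mb, were 1025 to 2525 bases wide and had a median gap of 27.4 kb to the nearest other region (13.1 to 258.1 kb). Wide regions of chromosome 11 had a mean of 1 further region within 10 kb, against 2.03 for those of the other chromosomes. Chromosome 11 was singled out after its values were seen and as the most extreme of 20, so this is a description.

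The widest isolated regions, after chr11:117582301-117584825, were chr2:140485376-140487375 (2000 bases, nearest other region at 34575 bases) and chr11:20625676-20627625 (1950 bases, at 13775 bases). The wide region farthest from any other was chrX:119508851-119510375, 1525 bases in 8 peaks, with 1.99 Mb to the region below and 7.11 Mb to the region above. It was the only wide region over 1 Mb from any other. Next came chr13:60862076-60863250 (1175 bases), at 583.7 kb, and chr3:154749626-154751000 (1375 bases), at 321.8 kb. An unbroken stretch of over 1000 bases therefore also occurred where the list holds nothing else nearby.

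The mean number of further regions within 10 kb was alike in both groups, while fewer wide regions had none and more had 1 or 2. Wide regions had a mean of 1.94 ± 1.98 further regions (SD over 339 regions) and a median of 2, against 1.98 ± 2.09 (SD over 23063) and a median of 1 in the rest. With 0 further regions there were 21.2%, with 1 there were 27.1% (interval 22.5 to 32.2), with 2 there were 23.6% (19.2 to 28.5) and with 3 or more there were 28.0% (23.3 to 33.1). In the rest the shares were 26.4%, 24.5%, 18.9% and 30.2%. The value of the rest lay outside the interval of the wide regions for 0 and for 2 further regions, and inside it for 1 and for 3 or more. With 5 or more further regions there were 26 wide regions (7.67%, 5.07 to 11.04), against 10.6% (10.2 to 11.03) of the rest. At larger distances the surroundings were alike, with a median of 5 further regions within 100 kb in both groups and of 29 within 1 Mb in both.

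**Figure D4:**
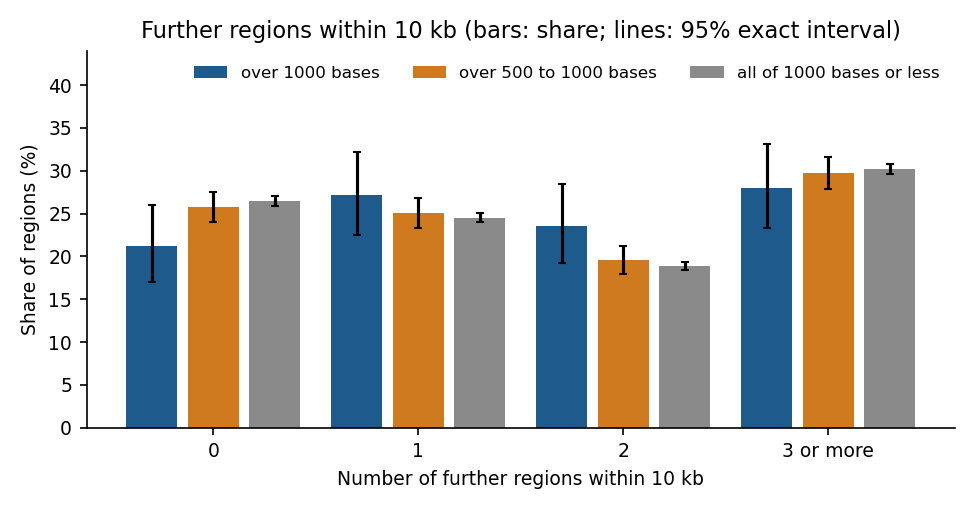
Share of regions in percent with 0, 1, 2 or 3 or more further regions within 10 kb, for wide regions, regions of over 500 to 1000 bases and all regions of 1000 bases or less. Bars are shares and lines 95% exact binomial intervals; wide regions are lower at 0 (21.2% against 26.4%) and higher at 2 (23.6% against 18.9%) than the rest.

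A few wide regions lay in crowded places. The region chr14:61832376-61833775 (1400 bases) had 15 further regions within 10 kb and was the last but one of 17 in its group, of whose covered bases it held 18.3%. The region chr2:121129626-121130675 (1050 bases) had 14 further regions and was the ninth of a group of 15, at gaps of 75 and 200 bases. The region chr10:79775776-79776925 (1150 bases) had 11 further regions, and 128 within 1 Mb. In total 5 wide regions (1.47%, interval 0.481 to 3.41) had 10 or more further regions, against 0.789% of the rest (0.679 to 0.912). None of these 5 was wider than 1500 bases.

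The bases covered by other regions beside a wide region were highest between 100 and 500 bases from its edge. From 100 to 250 bases away, 16.9% of bases were covered on the low-coordinate side and 18.7% on the high-coordinate side of wide regions, against 13.2% on both sides of the rest. From 250 to 500 bases away the values were 18.6% and 17.9%, against 13.7% and 13.6%. Between 2 and 5 kb away they had fallen to 2.18% and 1.77% for wide regions, close to the 2.04% and 2.15% of the rest. The higher coverage by neighbours was thus seen within 1 kb of the edge and on both sides, and regions of over 500 to 1000 bases had it as well, with 16.4% and 17.2% at 100 to 250 bases. Neighbours of wide regions were themselves of usual width. Where there was a neighbour within 10 kb, the nearest had a median width of 250 bases (interquartile range 175 to 375 bases), against 225 bases (150 to 350 bases) for the rest.

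**Figure D5:**
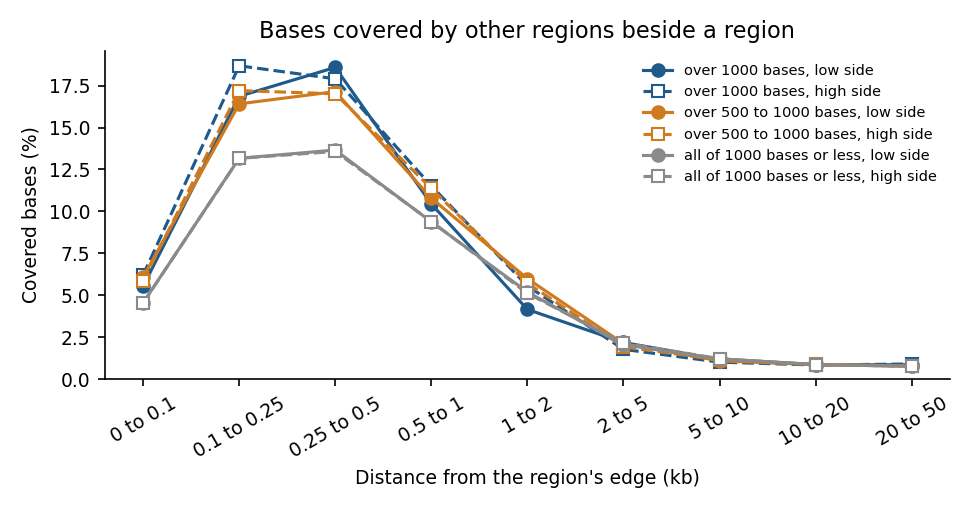
Share of bases covered by other regions, in percent, at increasing distance in kb from the edge of a region, on the low-coordinate side (filled points) and the high-coordinate side (open points). Lines for wide regions reach 18.6% and 18.7%, above those of the whole rest at up to 13.7%, and the lines come together beyond 2 kb.

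Wide regions had another wide region nearby about as often as the rest did. Linking regions up to 10 kb apart into loci, units of distance and not of genes, put the 339 wide regions into 335 loci. Of these loci, 331 held a single wide region and 4 held 2, and none held more. Counted from any wide region to the nearest other wide one, the median distance was 1.47 Mb (interquartile range 0.507 to 4.77 Mb). Another wide region lay within 10 kb of 8 wide regions (2.36%, interval 1.02 to 4.60), against 2.77% of the rest (2.56 to 2.99). Within 100 kb there was one for 34 (10.03%, 7.05 to 13.7), against 8.64% of the rest (8.28 to 9.01). Both values of the rest lie inside the intervals of the wide regions, so no difference was shown.

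The closest pair stood alone as a locus at chr9:16179376-16182700, with regions of 2025 and 1225 bases at 75 bases from each other. Nothing else was listed for 375825 bases below this pair or for 1.91 Mb above it. At chr17:50745601-50750525, regions of 1100 and 1125 bases lay 300 bases apart and were followed by a region of 225 bases. The pair at chr2:37284126-37292225, of 1175 and 1050 bases, was separated by 5875 bases. The fourth locus, chr2:121125276-121138075, held 15 regions, and its wide regions of 1050 and 1175 bases were the ninth and the last.

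Where a wide region had company, it held most of the covered bases. In 263 loci of at least 2 regions, wide regions made up a median of 69.4% of the covered bases (interquartile range 55.7 to 80.3%), and over 50% in 219 loci (83.3%). The median was 84.2% in loci of 2 regions, 70.7% in loci of 3 and 53.1% in 102 larger loci. A high share is given in advance by the choice of members for width. Of the 339 wide regions, 86 (25.4%, interval 20.8 to 30.4) were in loci of 2 and 181 (53.4%, 47.9 to 58.8) in loci of 3 or more, against 22.7% (22.2 to 23.3) and 50.8% (50.2 to 51.5) of the rest. In loci of 2 regions, the wide one was first in 39 cases and last in 47, with both counted where both were wide.

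Within loci of 3 or more regions, wide regions were outermost about as often as any region of the same loci. Of 181 wide regions in 179 such loci, 92 were first or last (50.8%, interval 43.3 to 58.3). To compare like with like, each locus was counted equally, which gave 50.8% for wide regions. For any region of the same loci the share was 51.5%, set by locus size alone. The value of the other regions, 52.1%, is no separate comparison, since ends not taken by a wide region fall to them. By size of the locus, the shares for wide regions and for any region were 66.9% and 66.7% in 77 loci of 3. They were 40.4% and 50% in 47 loci of 4, and 37.3% and 31.5% in 55 loci of 5 or more. The intervals of the wide regions were 26.4 to 55.7 in loci of 4 and 24.9 to 51.5 in loci of 5 or more. Both hold the value of any region, so no difference by size was shown. In those of 3 regions the wide one was first in 32 cases, in the middle in 26 and last in 20.

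The 35 wide regions over 1500 bases in such loci were outermost in 22 cases (62.9%, interval 44.9 to 78.5). For any region of their loci, counted per locus, the share was 55.1%, and the interval holds that value. At 1001 to 1250 bases the values for wide regions and for any region of their loci were 50% and 50.8%. At 1251 to 1500 bases they were 42.1% and 49.99%. A related measure that uses all wide regions is the share with another region within 1 kb on 1 side and none within 10 kb on the other. It was 34.5% (29.5 to 39.8) for wide regions, against 29.0% (28.4 to 29.5) of the rest and 32.2% (30.4 to 34.2) of regions of over 500 to 1000 bases. Among the 69 regions over 1500 bases it was 46.4% (34.3 to 58.8). This measure also counts loci of 2 regions, where each region is outermost, so locus size was not held the same. Such loci held 25.4% of wide regions, 29.0% of those over 1500 bases and 22.7% of the rest. Neither side was favoured among the wide regions as a whole, of which 89 had neighbours within 10 kb only on the low-coordinate side and 89 only on the high-coordinate side.

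Which stretches count as wide depended on how gaps of a few grid steps were treated. When peaks up to 25 bases apart were joined as well, 433 regions were over 1000 bases, and 24 of the 339 (7.08%) had taken up a neighbour. With joining up to 50 bases there were 509, and up to 100 bases there were 656, of which 318 held no member of the 339. At 100 bases, 86 of the 339 (25.4%) had taken up at least 1 neighbour, and a pair of members had merged, the one on chromosome 9 at a gap of 75 bases. The wide regions that resulted at 100 bases had another region within 1 kb in 47.0% of cases (43.1 to 50.9) against 40.1% of the other regions. None lay within 10 kb in 29.3% (25.8 to 32.9) against 32.6%, so that the contrast in isolation was then within counting error. Whether a short gap divides 1 stretch or separates distinct sites was not tested, since the list has no heights.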

How the data were processed

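RNA of 3 MeRIP and 3 input libraries was measured. The authors deposited 1 list of peak starts and ends for all 6. The submitters' processing notes name BWA 0.6.2-r126, SAMtools 0.1.18 and build mm9; what each did, which peak caller and threshold were used and whether libraries were pooled was not given in the sources used here. Touching peaks were joined, and gaps, further regions within 10 kb and loci (links of up to 10 kb) were measured from edge to edge with Python 3.11.15, numpy 2.4.6, pandas 2.3.3 and scipy 1.17.1 (figures: matplotlib 3.10.9). These steps were tested on simulated positions. No comparison of MeRIP with input and no test over regions was made, because the list has no value per library. Named regions are the 10 widest, the 3 widest isolated, the 3 farthest from any other, the 3 with the most further regions, the loci with the most wide regions (3 planned, 4 given because only 4 held a pair), and the 3 chromosomes with the highest and lowest share. The members, rules and comparisons were chosen with earlier results of these data known. Gene placement was not run, since no mm9 genome was used here; the gene and sequence tables at hand belong to build GRCm38. Alternatives changed the width limit, the joining of peaks, the distances, the denominator and the comparison group.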

Additional observations from a re-analysis of the deposited data

How the results depend on the processing

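No paired analysis was possible because the list gives positions alone, without values by library or by peak; no replicate could be left out and no stricter peak threshold applied. Of 39 alternative values, 31 stayed within the binomial interval of the reported share or within 1.5 times the reported count, mean or median. The other 8 moved. Most of the 39 values describe the wide regions alone, so these counts do not show how stable the contrasts with the rest are. There were 931 regions over a limit of 750 bases and 69 over 1500 bases, and the share outermost in loci of 3 or more regions was 62.9% at the limit of 1500 bases. Joining peaks up to 100 bases apart gave 656 wide regions, of which 29.3% were isolated, with a median gap of 1325 bases, since short gaps are removed by construction. The share of isolated wide regions was 27.7% at a distance of 5 kb and 16.2% at 20 kb, also by construction. The share of isolated wide regions minus that of the comparison group was -5.18 percentage points against the rest and -4.50 against regions of over 500 to 1000 bases. Without chromosome 11, an alternative chosen after seeing the data, 18.8% were isolated and the mean number of further regions was 2.03. Small counts per chromosome limit what shares can show.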
